A study of Gallus gallus with 16 samples.

Results

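DMRT1 and HEMGN are 2 genes of the chicken Z chromosome that act in the testis pathway, and both were found by gene symbol in a table of 14074 Ensembl genes, 693 of them on Z. DMRT1 (ENSGALG00000010160) encodes a transcription factor with a DM domain. HEMGN (ENSGALG00000023061) encodes hemogen, a nuclear protein. The data are SuperSAGE tag counts from gonads of male and female chicken (Gallus gallus) embryos at embryonic day 19. The substances were methyltestosterone, an androgen, at 30 pg for each g of body weight, tributyltin, an organic tin compound, at 10 pg of tin for each g of body weight, sesame oil, and none. Neither the strain nor the carrier of methyltestosterone and tributyltin is given in the labels. The labels describe 16 libraries, 1 for each sex, side and substance, each from RNA of 10 individuals, and the table joins left and right gonads into 8 columns, 1 per sex and substance.

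Male birds carry ZZ and females ZW, so a Z gene is present in a double dose in males unless its expression is adjusted. In the chicken embryo DMRT1 is the gene whose dose directs the gonad towards a testis, and its loss from a ZZ gonad lets ovarian genes come on. It is active in Sertoli cells and in germ cells. HEMGN is known in mammals as a gene of blood-forming cells, while in the chicken embryo it is also made in the male gonad, where it acts downstream of DMRT1 and upstream of the Sertoli cell factor SOX9. AMH, the hormone that makes Mullerian ducts regress, and aromatase (CYP19A1), the enzyme that makes oestrogen, are the classical outputs of the testis and ovary branches.

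SuperSAGE reads 1 tag per polyadenylated transcript, cut beside its last NlaIII site, so that values are tags per 1000000 tags (RPM) and need no division by length. The columns held 314810 to 6669049 tags. In the oil and tributyltin columns 1 tag equalled 1.97 to 3.18 RPM, and in the methyltestosterone and untreated columns 0.150 to 0.512 RPM. Intervals given for single columns are exact Poisson 95% intervals and cover counting error only. A value of 0 is read against a floor of 3 tags in its column. Tags of 10 W-linked genes summed to 178 to 324 RPM in the 4 female columns. In males they summed to 36.9 RPM untreated, 33.9 RPM after methyltestosterone, 4.06 RPM after oil and 0 RPM after tributyltin. The sums thus went with the labelled sex, but they do not show that each individual of a pool was of that sex. The source of the W-linked tags in male columns was not tested. Each sex and substance is a single column, so p-values measure the spread between columns around a model in which sex and substance add, and no test exists within a sex. Nothing in the labels says that the individuals of each pool were unrelated. In whole gonads, fewer cells of a type and less RNA per cell cannot be told apart.

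HEMGN separated male from female gonads at each substance. Male columns held 50.4 RPM (336 tags) after methyltestosterone, 39.4 RPM (20 tags) after tributyltin, 36.5 RPM (18 tags) after oil and 23.5 RPM (46 tags) without a substance. Female columns held 5.39 RPM (17 tags) after methyltestosterone, 5.14 RPM (2 tags) after tributyltin, 0 RPM after oil and 1.74 RPM (4 tags) without a substance. The lowest male column thus stood above the highest female column. Every male column stood above every female column for 3.53% of the 9280 tested genes, and for 16.3% of the 484 tested Z genes. In limma, on log2(RPM + 1), the difference of males to females was 3.53 (SE 0.56), with an adjusted p of 0.00480 over all tested genes. Males were higher at each of the 4 substances. An exact permutation test of the 4 male and 4 female columns gave a two-sided p of 0.0286, the smallest that its 70 regroupings allow. These regroupings do not keep the pairing of male and female columns by substance. Called genes higher in males made up 2.28% of all tested genes and 11% of tested Z genes.

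DMRT1 did not separate the sexes at each substance. Male columns held 49.0 RPM (327 tags) after methyltestosterone, 15.7 RPM (8 tags) after tributyltin, 4.06 RPM (2 tags) after oil and 66.0 RPM (129 tags) without a substance. Female columns held 31.1 RPM (98 tags) after methyltestosterone, 0 RPM after tributyltin, 6.35 RPM (2 tags) after oil and 9.56 RPM (22 tags) without a substance. The male and female ranges overlapped, since the methyltestosterone females stood above the tributyltin and oil males. The limma difference of males to females was 1.71 (SE 0.71) and did not pass (adjusted p = 0.222, with an interval of 0.14 to 3.28). The male column was the higher at 3 of 4 substances, and oil held only 2 tags in each sex. The exact two-sided permutation p, likewise without the pairing by substance, was 0.229. Among methyltestosterone and untreated columns alone the limma difference was 1.65 and passed (adjusted p = 0.00242), and among oil and tributyltin columns alone it was 1.76 and did not (adjusted p = 0.680). For HEMGN the same subsets gave 3.09 (limma adjusted p = 8.86e-07) and 3.97 (limma adjusted p = 0.412). Each subset leaves 1 residual degree of freedom per gene, beside a limma prior of 27.64 for methyltestosterone and untreated and 1.926 for oil and tributyltin. With methyltestosterone and untreated alone the p-values thus rest mostly on the spread of other genes, and 1014 of 9280 genes were called. There DMRT1 itself differed by 0.64 after methyltestosterone and by 2.67 untreated. With oil and tributyltin alone limma called 0 genes by sex, with 1076 at an unadjusted p under 0.05, while on the tags of the same columns edgeR called 382 and DESeq2 112. In edgeR HEMGN passed there (3.84, adjusted p = 0.00605), and in DESeq2 it did not (4.24, adjusted p = 0.352).

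**Figure D1:**
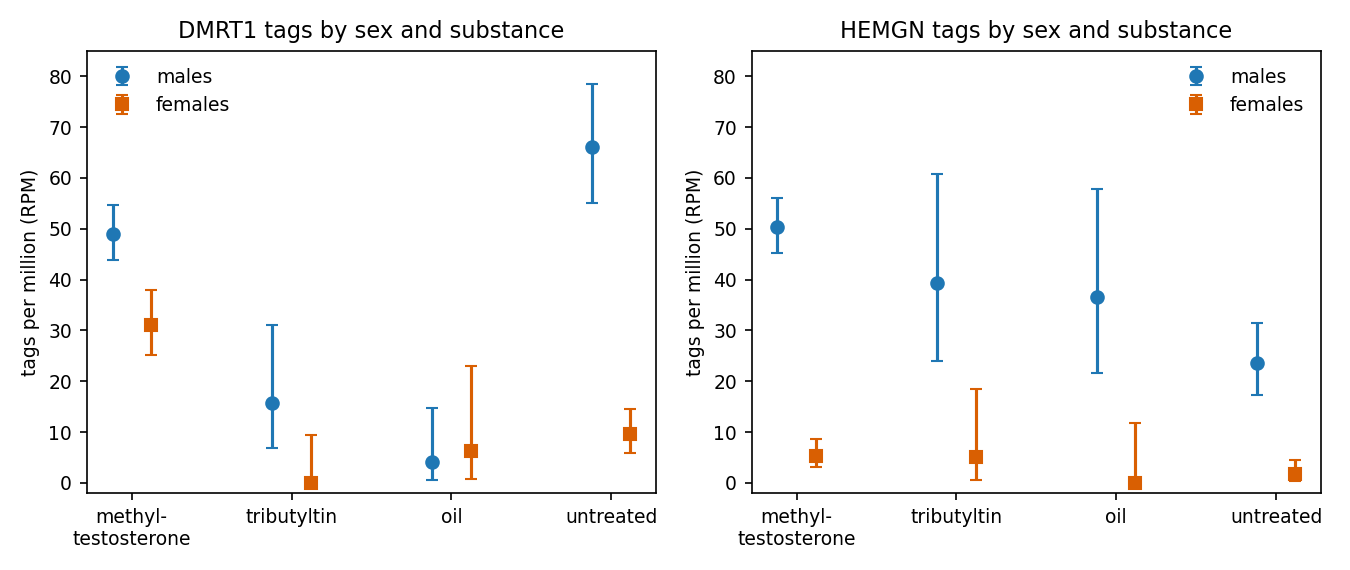
Tags per 1000000 (RPM) of DMRT1 (left) and HEMGN (right) in the 8 columns, males as blue circles and females as orange squares, with exact Poisson 95% intervals for counting error. HEMGN separates the sexes at each substance, from 23.5 RPM upwards in males and up to 5.39 RPM in females, while DMRT1 reaches 31.1 RPM in methyltestosterone females and is at 4.06 RPM in oil males.

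The sex gap of DMRT1 differed between methyltestosterone and untreated gonads beyond counting error, and that of HEMGN did not. For DMRT1 the males over females ratio was 1.58 after methyltestosterone (counting interval 1.26 to 2.00) and 6.91 in untreated gonads (4.37 to 11.4), and these intervals do not overlap. After tributyltin the male value of DMRT1 was 2.04 times the floor of 7.72 RPM of the female column, which held no tag, and the counting interval of the male to female ratio began at 1.31. After oil both columns were under the floor of 3 tags, at 4.06 RPM in males and 6.35 RPM in females. For HEMGN the ratio was 9.35 after methyltestosterone (5.75 to 16.2), 7.65 after tributyltin (1.86 to 67.5) and 13.5 in untreated gonads (4.95 to 51.8), and these intervals overlap. After oil the male value of HEMGN was 3.83 times the floor of 9.53 RPM of the female column, which held no tag, and the counting interval of the ratio began at 2.81. On the log2(RPM + 1) scale the difference of males to females spanned -0.54 to 4.07 over the substances for DMRT1, with an SD of 2.05, and 2.72 to 5.23 for HEMGN, with an SD of 1.15 (n = 4 substances each). The ends of both spans fell in the shallow oil and tributyltin pairs. There DMRT1 held 2 tags in each sex after oil, and 8 in males and 0 in females after tributyltin. The part of depth in these SDs was not tested. The gap of HEMGN exceeded that of DMRT1 by 1.82 on average and was the larger at 3 of 4 substances. By substance the excess ran from -1.35 after tributyltin to 5.77 after oil, the pairs with the fewest tags of DMRT1. That excess was not separable from the spread between substances (exact two-sided sign-flip permutation p = 0.375, where 0.125 is the smallest this design allows).

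**Figure D2:**
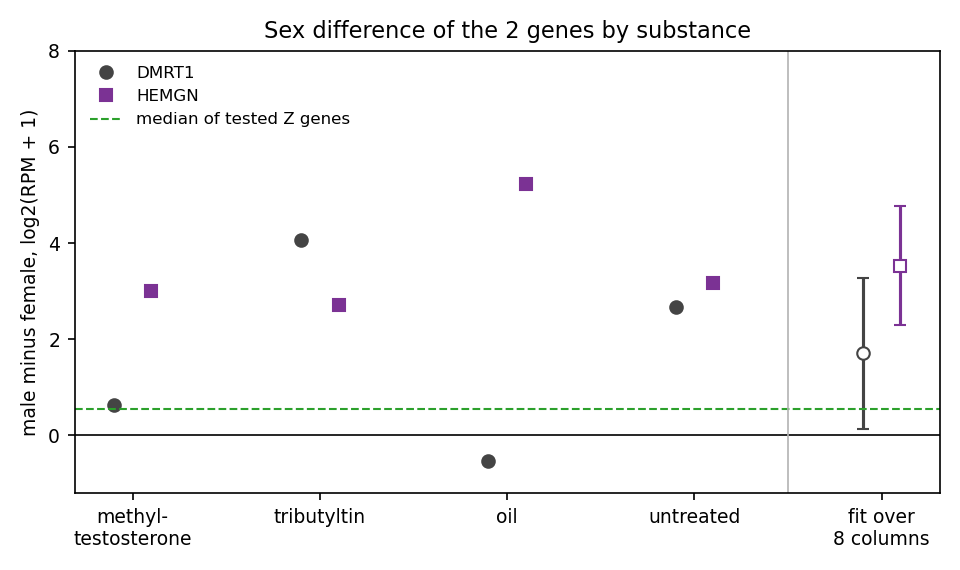
Difference of males to females in log2(RPM + 1) for DMRT1 (grey circles) and HEMGN (purple squares) at each substance, without error since each is a single pair of columns, and (open symbols) the limma estimate over the 8 columns with its 95% interval. HEMGN lies above the dashed median of Z genes (0.55) at each substance, and DMRT1 lies below it after oil, where each sex had 2 tags.

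By level the 8 columns fell in different orders for the 2 genes. For DMRT1 the order was untreated males, methyltestosterone males, methyltestosterone females, tributyltin males, untreated females, oil females, oil males and tributyltin females. The counting intervals of neighbours in that order were apart only at its top, between untreated and methyltestosterone males and between methyltestosterone males and methyltestosterone females. For HEMGN the 4 male columns came first, and the only neighbours with separate intervals were untreated males (17.2 to 31.4 RPM) and methyltestosterone females (3.14 to 8.63 RPM). Within a column, the tags of HEMGN stood to those of DMRT1 as 1.03 in methyltestosterone males, 2.50 in tributyltin males and 0.357 in untreated males, while oil males held 36.5 RPM of HEMGN and 4.06 RPM of DMRT1. In females this tag ratio was 0.173 after methyltestosterone and 0.182 without a substance, and it could not be formed where either gene was at 0. HEMGN had more tags than DMRT1 in 3 of 4 male columns and fewer in 3 of 4 female columns. Of these, methyltestosterone males held 336 and 327 tags, with overlapping counting intervals. Oil and tributyltin females held at most 2 tags of either gene, under the floor of 3 tags.

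Methyltestosterone against untreated sets gonads given the androgen beside gonads given nothing. The carrier of methyltestosterone is not given, so androgen and carrier cannot be told apart. Depth differed too, with 6669049 and 3154653 tags in methyltestosterone males and females and 1953798 and 2301752 in untreated males and females. In females DMRT1 was at 31.1 RPM (25.2 to 37.9) after methyltestosterone and at 9.56 RPM (5.99 to 14.5) untreated, a ratio of 3.25 (counting interval 2.03 to 5.42). In males it was at 49.0 RPM (43.9 to 54.6) after methyltestosterone and at 66.0 RPM (55.1 to 78.5) untreated, a ratio of 0.743 (0.604 to 0.918). The female column was thus higher and the male column lower than its untreated counterpart, beyond counting error. HEMGN was higher after methyltestosterone in both sexes by its counts, with a ratio of 2.14 in males (1.57 to 2.98) and 3.10 in females (1.01 to 12.7). Over both sexes together neither gene passed in limma. DMRT1 differed by 0.59 (interval -1.63 to 2.81, limma adjusted p = 0.969) and HEMGN by 1.14 (SE 0.79, limma adjusted p = 0.799), where 0.345% of all genes were called. In the authors' deposited table the p-value of methyltestosterone and untreated females was 1.22e-07 for DMRT1 and 0.0318 for HEMGN. For the same pair in males the authors' deposited table gave 0.00407 for DMRT1 and 7.17e-07 for HEMGN. These compare single pools by a test that is not stated, and 41.8% of the listed female p-values and 36.1% of the male ones were under 0.05.

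AMH and SOX9, which lie downstream in the same branch, did not go the same way in those females. AMH was at 6774 RPM in methyltestosterone females and 1486 RPM in untreated females, while SOX9 was at 13.6 RPM and 30.8 RPM in the same columns. In the matching males AMH was at 10834 RPM after methyltestosterone and 10186 RPM untreated, and SOX9 was at 322 RPM and 273 RPM. Of 13 tested genes of the testis list without DMRT1 and HEMGN, 8 were higher in methyltestosterone than in untreated females, as were 54.1% of all tested genes, with a median difference of 0.21 against 0.08 over all tested genes. In males 10 of the 13 were higher after methyltestosterone, as were 57.6% of all tested genes, with a median of 0.35 against 0.12. W-linked tags summed to 235 RPM in the methyltestosterone females and 324 RPM in the untreated females.

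Tributyltin against oil sets gonads given the organotin beside gonads given oil. DMRT1 was at 15.7 RPM (6.80 to 31.0) in tributyltin males and 4.06 RPM (0.492 to 14.7) in oil males, and the ratio of 3.88 had a counting interval of 0.774 to 37.5. In females it was at 0 RPM (upper bound 9.49) after tributyltin and 6.35 RPM (0.769 to 22.9) after oil, both under the floor of 3 tags. HEMGN was at 39.4 RPM (24.0 to 60.8) in tributyltin males and 36.5 RPM (21.7 to 57.7) in oil males, a ratio of 1.08 (0.541 to 2.16). In females it was at 5.14 RPM after tributyltin and 0 RPM after oil, again within the floor. Neither gene showed a difference that was detectable at this depth. The limma difference over both sexes was -0.58 for DMRT1 (interval -2.80 to 1.65, adjusted p = 0.856) and 1.36 for HEMGN (SE 0.79, adjusted p = 0.556). In this comparison limma called 0% of genes, with 991 of 9280 at an unadjusted p under 0.05, and edgeR and DESeq2 on the tags of 7 columns called 4 and 2. In the authors' deposited table the 4 p-values of the pair, 2 per gene, were 0.0645 and 0.116 for DMRT1 in males and females, and 0.819 and 0.203 for HEMGN.

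Oil against untreated compares 2 sets of columns that also differ in depth, with 492619 and 314810 tags in oil males and females and 1953798 and 2301752 in untreated males and females, so substance and set cannot be told apart. DMRT1 was at 4.06 RPM (2 tags) in oil males and 66.0 RPM in untreated males, a ratio of 0.0615 (counting interval 0.00737 to 0.227). In females it was at 6.35 RPM after oil and 9.56 RPM untreated, and the ratio of 0.665 had a counting interval of 0.0758 to 2.70. HEMGN was not lower in oil males, at 36.5 RPM after oil and 23.5 RPM untreated, with a ratio of 1.55 (0.847 to 2.73). In limma the difference of oil to untreated was -2.12 for DMRT1 (interval -4.35 to 0.10, adjusted p = 0.215) and -0.42 for HEMGN (SE 0.79, adjusted p = 0.781), against 6.36% of genes called. With edgeR, on 7 columns without the untreated females, DMRT1 passed with a difference of -3.30 (adjusted p = 0.0125). The authors' deposited table gave a p-value of 1.09e-07 for DMRT1 and 0.111 for HEMGN in oil and untreated males. In females the deposited p-values of this pair were 0.578 for DMRT1 and 0.460 for HEMGN. Of the listed p-values 33.8% in males and 34.3% in females were under 0.05.

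Set against its own chromosome, HEMGN differed by sex by more than the median Z gene, and DMRT1 could not be told from it. Over 484 tested Z genes the median difference of males to females was 0.55 (interquartile range -0.02 to 0.99), or 1.47 times as much in males, and over 8505 autosomal genes it was -0.08. HEMGN ranked 3 among the Z genes and 14 among all 9280 tested genes. Its difference exceeded the Z median by 2.97, with a limma 95% interval of 1.73 to 4.22. DMRT1 ranked 42 on Z and 178 among all genes. Its difference exceeded the Z median by 1.15, with an interval of -0.42 to 2.73 that includes the median itself. The Z genes ranked above HEMGN, named after their values were seen, were ALDH1A1, a retinaldehyde dehydrogenase (5.27), and ENSGALG00000028413 (3.77). In limma 553 genes were called by sex in all (5.96%), 212 higher in males and 341 higher in females, and edgeR with TMM scaling on 7 columns gave 280 and 251. Leaving out any 1 of the untreated, methyltestosterone or tributyltin columns gave 216 to 293, while the HEMGN call held without each column in turn (adjusted p = 0.00582 to 0.0407). In this model either column of a substance left out gives the same sex estimate, so these fits hold 1 estimate per substance.

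**Figure D3:**
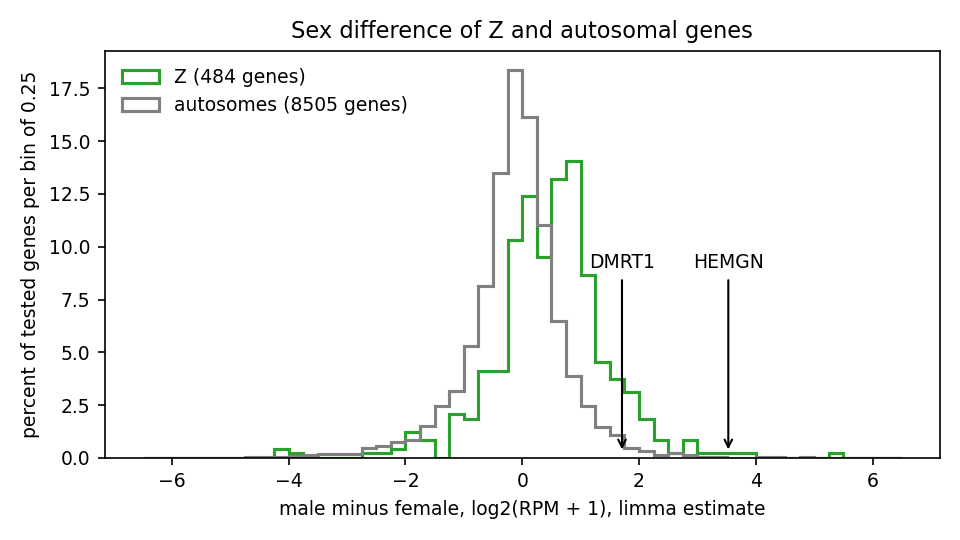
Share of tested genes by their limma difference of males to females in log2(RPM + 1), in bins of 0.25, for 484 Z genes (green) and 8505 autosomal genes (grey). Arrows mark DMRT1 at 1.71, within the upper part of the Z genes, and HEMGN at 3.53, in their far tail.

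The genes beside each on Z were read for comparison, by the gene order of the reference assembly GRCg7b among Z genes of the table whose symbols matched it (520 of 693). KANK1, which codes for an actin-regulating ankyrin repeat protein and lies next to DMRT1, was at 857 to 1614 RPM in males and 339 to 647 RPM in females, and was higher in males (limma difference 1.18, SE 0.21, adjusted p = 0.00960). On its other side DMRT3 and DMRT2, genes of the same DM domain family, had at most 0.512 RPM and 0 RPM in any column. Of 8 tested neighbours of DMRT1, KANK1 was the 1 that passed, where 11% of tested Z genes were called higher in males. The median of the neighbours was 0.63. SMARCA2, a chromatin remodelling ATPase, differed by -0.05, and PGM5, of the phosphoglucomutase family, by 1.80 without passing (limma adjusted p = 0.0529).

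Around HEMGN 2 of 7 tested neighbours were higher in males, XPA and APTX, where 11% of tested Z genes were. The median of the neighbours was 0.72. XPA, a nucleotide excision repair factor and the next gene in this order, was at 290.2 to 390 RPM in males and 117 to 193 RPM in females (limma difference 1.14, SE 0.17, adjusted p = 0.00389). APTX, a DNA strand break repair enzyme, was at 2.85 to 9.84 RPM in males and 0 to 2.17 RPM in females (limma difference 2.34, SE 0.58, adjusted p = 0.0420). Its 0 RPM in oil and tributyltin females stands against floors of 9.53 and 7.72 RPM, so depth limits this call. SPINK4, the next on the other side, had 0 RPM in each column. The estimated sex difference of HEMGN was larger than that of each tested neighbour.

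**Figure D4:**
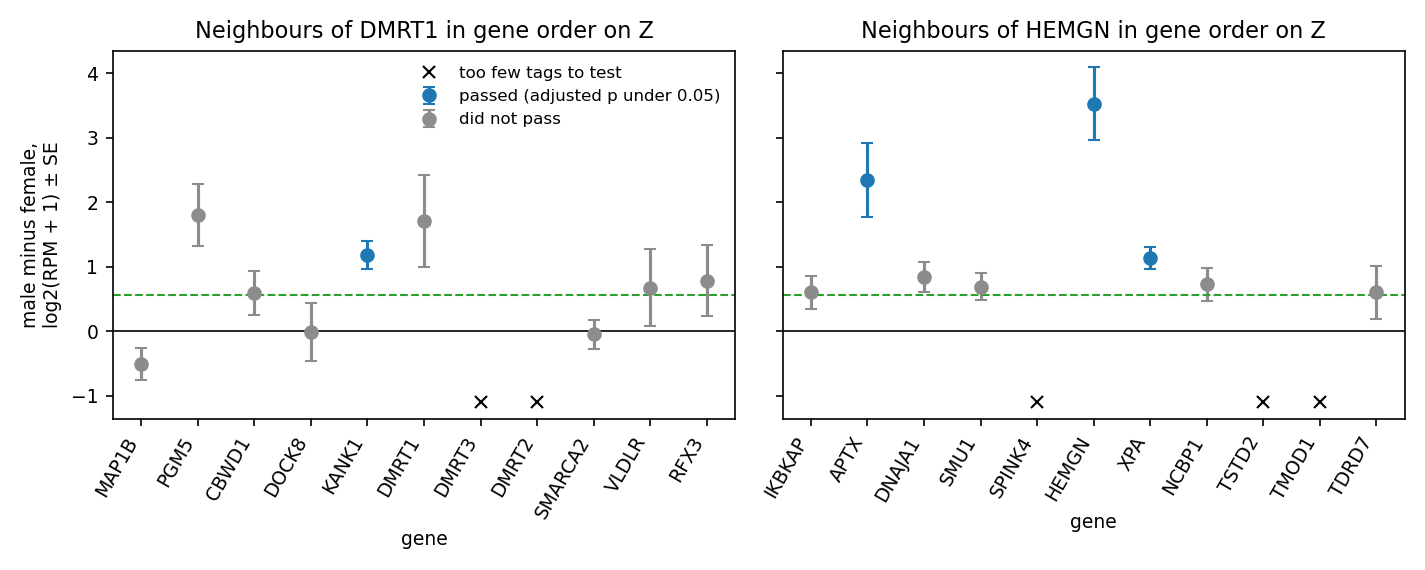
Limma difference of males to females, log2(RPM + 1) with its SE, for DMRT1 (left) and HEMGN (right) and the 5 genes on each side in gene order on Z. Blue marks a limma adjusted p under 0.05, grey did not pass, crosses mark genes with too few tags to test, and the dashed line is the Z median of 0.55. HEMGN at 3.53 stands above its neighbours, while PGM5 at 1.80 stands level with DMRT1 at 1.71.

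Other genes of the 2 branches parted by sex in part. Of 13 tested testis pathway genes besides DMRT1 and HEMGN, 5 were higher in males, where 2.28% of all genes were, none was higher in females and 8 did not pass. The list median was -0.05, near the -0.06 over all genes. Those higher in males were SOX9 (47.2 to 322 RPM in males, 0 to 30.8 RPM in females), the tight junction gene CLDN11 (3.94 to 411 RPM and 0 to 9.19 RPM), and the inhibin beta B subunit INHBB (7.87 to 24.6 RPM and 0 to 2.17 RPM). AMH (6912 to 10834 RPM in males, 977 to 6774 RPM in females) and NR5A1, the steroidogenic nuclear receptor (292 to 518 RPM and 216 to 250.1 RPM), completed them. Their limma differences ran between 0.72 for NR5A1 and 4.28 for CLDN11, so HEMGN at 3.53 lay inside that range. For SOX9, INHBB, AMH and NR5A1, as for HEMGN, the lowest male column stood above the highest female column, as for 3.53% of all tested genes. For CLDN11 the ranges overlapped. These genes were named because they passed the sex test on the same columns, so this is no separate result.

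Of 10 tested ovary pathway genes 4 were higher in females, where 3.67% of all genes were, and none was higher in males. They were CYP19A1 (0 to 11.1 RPM in males, 28.7 to 118 RPM in females), the oestrogen-responsive GREB1 (0 to 16.6 RPM and 32.1 to 121 RPM), the WNT activator RSPO1 (1.02 to 8.25 RPM and 28.7 to 88.9 RPM) and the growth factor BMP7 (0 to 7.05 RPM and 15.9 to 28.3 RPM). FOXL2, the granulosa factor that opposes DMRT1 in the mouse gonad, did not pass (limma difference -1.74, SE 0.59, adjusted p = 0.134). It was at 125.6 RPM in females and 25.1 RPM in males untreated, and at 117.0 and 18.4 RPM after methyltestosterone. In the oil and tributyltin columns it was at 0 to 3.18 RPM, under the floor of 3 tags. The list median was -1.52. Of the DM domain family besides DMRT1, DMRTB1 was the only tested gene, at 21.6 to 48.6 RPM in males and 7.72 to 26.3 RPM in females (limma difference 0.63, SE 0.38, adjusted p = 0.438).

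**Figure D5:**
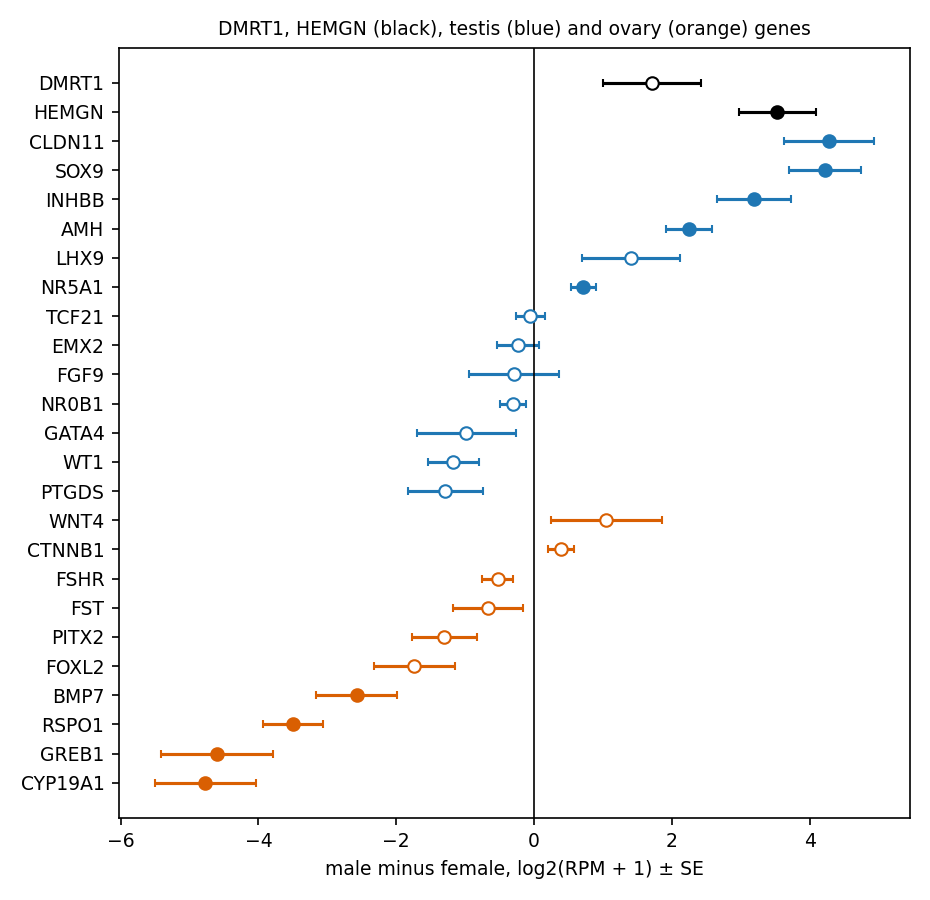
Limma difference of males to females, log2(RPM + 1) with its SE, for DMRT1 and HEMGN (black), tested testis pathway genes (blue) and tested ovary pathway genes (orange); filled symbols passed (adjusted p under 0.05). HEMGN at 3.53 lies among the passing testis genes, between INHBB at 3.19 and SOX9 at 4.23, and DMRT1 at 1.71 is open.

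Red blood cell markers as a sum were higher in each female column than in any male column. The 14 listed markers in the table summed to 2926 to 6941 RPM in males and 9911 to 16750 RPM in females, with HBG1, HBZ and SLC4A1 at 0 in each column. Of 10 tested, the haemoglobins HBAA, HBAD and HBB and the carbonic anhydrase CA2 were higher in females, where 3.67% of all genes were, and none was higher in males. The haemoglobin HBE stood on the male side without passing, at 1.97 to 3.07 RPM in males and 0 to 0.317 RPM in females (limma difference 1.64, SE 0.49, adjusted p = 0.0895). It reached 1 RPM in male columns only and so entered the test through them, and this estimate gives no support for a direction. In the oil and tributyltin columns HBE was under the floor of 3 tags. The female columns, each above all male columns in red cell tags, held 0 to 5.39 RPM of HEMGN. After methyltestosterone the sums were 6941 RPM in males and 16750 RPM in females, against 2926 RPM and 10572 RPM in untreated males and females. HEMGN was higher in those methyltestosterone columns too. The part of red cells in that difference and in the sex difference of HEMGN was not tested.

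Germ cell markers did not part the sexes as a sum, at 197 to 256 RPM in males and 161 to 294 RPM in females over 13 genes. The vasa homologue DDX4 had at most 1.97 RPM in males and 0 RPM in females, and MAEL was at 0 throughout. Other listed markers had tags in each column. Among them DAZL was at 30.7 to 77.1 RPM in males and 23.8 to 43.7 RPM in females. SYCP3 was at 41.8 to 63.0 RPM and 38.4 to 124 RPM, and TDRD9 at 25.6 to 45.0 RPM and 17.8 to 50.8 RPM. KIT, the stem cell factor receptor, was the 1 of 9 tested that passed, at 14.2 to 57.1 RPM in males and 3.18 to 15.2 RPM in females (limma difference 1.63, SE 0.42, adjusted p = 0.0497). Of all tested genes 2.28% were called higher in males. In methyltestosterone and untreated females, where DMRT1 was at 31.1 and 9.56 RPM, the germ cell sums were 161 and 294 RPM. The cadherin CDH1 made up most of that gap, at 17.1 and 133.8 RPM, and without it, a choice made after the values were seen, the sums were 144 and 160.3 RPM.

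Markers of tissue next to the gonad were higher in female columns. Adrenal medulla markers (6 genes) summed to 51.2 to 382 RPM in males and 413 to 1190.0 RPM in females, and 5 mesonephros and kidney markers to 22.3 to 119 RPM and 373 to 1142 RPM. Of these lists, 5 of 6 and 4 of 5 tested genes were higher in females, against 3.67% of all tested genes. Leukocyte markers (6 genes) summed to 22.5 to 47.2 RPM in males and 89.5 to 157 RPM in females, with 2 of 5 tested higher in females. Their part in the sex difference of DMRT1 and HEMGN was not tested. Steroid cell markers summed to 9557 to 12650 RPM in males and 9884 to 13030 RPM in females, mostly from CYP17A1 (7917 to 11817 RPM and 9208 to 12122 RPM). Of 4 tested, the steroid dehydrogenase HSD3B2 was higher in males, at 817 to 1594 RPM in males and 454 to 734 RPM in females (limma difference 1.03, SE 0.16, adjusted p = 0.0050). Of all tested genes 2.28% were called higher in males. The other 3 steroid cell genes did not pass and had estimates on the female side, and the list median was -0.54. The Sertoli list summed to 6971 to 11591 RPM in males and 983 to 6798 RPM in females, mostly from AMH (6912 to 10834 RPM and 977 to 6774 RPM). The granulosa list summed to 6.09 to 66.0 RPM and 190.3 to 286 RPM.

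By correlation over the 8 columns in log2(RPM + 1), among 4855 named genes whose mean reached 20 RPM, DMRT1 was most alike to SPRED1 (Pearson r = 0.970), SLC35D1 (0.963), LAP3 (0.960) and TMEM100 (0.956). None of these passed the sex test, and all of them were lowest in tributyltin females. DMRT1 held no tag there (floor 7.72 RPM), so that low largely follows from the choice by likeness to DMRT1. TMEM100 was at 81.9 and 89.6 RPM in methyltestosterone and untreated males but 27.6 and 20.3 RPM in tributyltin and oil males. HEMGN was most alike to the Z gene SMC5 (0.977), TSHZ3 (0.974), PPARGC1A (0.973), EDAR (0.960) and the Z gene GNE (0.956). Of these SMC5, PPARGC1A and EDAR were higher in males by the sex test, where 2.28% of all tested genes were. They were picked by likeness to HEMGN over the same columns, so this largely follows from the choice and is no separate result. SMC5, of a DNA repair complex of the cohesin type, was at 97.2 to 215 RPM in males and 19.1 to 56.6 RPM in females. Columns share depth and substance set, so these values describe the 8 columns only.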

How the data were processed

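The authors deposited tags of each gene as RPM (headed tpm, tags per 1000000 tags of the listed genes, per the file headers), with a filler of 0.05 for no tag, set here to 0. Per the submitters' processing notes, the aligner was Novoalign and the build galGal4. How tags were assigned to genes and left and right gonads joined is not given in the sources used here. The deposited p-value columns compare pairs of columns by a test that is not stated. Whole tags were recovered from each column (100% of values within 0.01 of a whole tag). A check of wholeness that reads the filler as a value accepted 7 columns, not that of untreated females, and count tests used those. The 9280 genes that reached 1 RPM in 4 or more columns were tested on log2(RPM + 1) with limma 3.58.1 in R 4.3.3, with sex and substance as additive terms and a mean trend (3 residual degrees of freedom, prior 7.39), and called at a Benjamini-Hochberg adjusted p under 0.05. The interval against the Z median takes that median as fixed.

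Named were DMRT1, HEMGN, list genes that passed or stand beside them, 5 neighbours on each side and the 5 most alike genes, of which 1 is not reported here. Members and lists were chosen with earlier results of these data known, and a few further genes are marked as named after their values were seen. The alternatives were a pseudocount of 0.5 or 5, testing all genes with a tag or only those with a mean from 20 RPM upwards, scaling by the median of ratios, thinning to 314810 tags, edgeR 4.0.16 and DESeq2 1.42.0 on 7 columns, and fewer columns. The fits were tested on simulated data.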

Additional observations from a re-analysis of the deposited data

Results flagged for a closer look

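DMRT1 differed between methyltestosterone and untreated columns in opposite directions in the sexes, with each column beyond its floor. The log2(RPM + 1) difference of methyltestosterone to untreated was -0.42 in males and 1.60 in females, so that of males minus that of females was -2.02. With 1 column per sex and substance this difference was not tested.

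Within a sex, 29 named genes gave 58 sets of 4 columns, and in 5 of them 1 column stood apart by more than Dixon's 95% limit on the gap as a share of the range, which chance passes in about 1 set in 20. For AMH in females the share was 0.912, with 6774 RPM after methyltestosterone. For HBAA in males it was 0.916, with 3082 RPM after methyltestosterone, and for HBAD in females 0.836, with 3822 RPM after methyltestosterone. For APTX in females it was 1, with 2.17 RPM untreated and 0 elsewhere, where the floors after oil and tributyltin were 9.53 and 7.72 RPM. For GNE in males it was 0.833, with 134 RPM after oil. Neither DMRT1 nor HEMGN had such a column in either sex.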

How the results depend on the processing

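The HEMGN sex difference passed under the alternatives run except with oil and tributyltin columns alone in limma (3.97, adjusted p = 0.412) and in DESeq2 (4.24, adjusted p = 0.352), and it was 2.96 or more without each column in turn. DMRT1 did not pass by sex except with methyltestosterone and untreated columns alone (1.65, limma adjusted p = 0.00242). That fit had 1 residual and 27.64 prior degrees of freedom. The DMRT1 difference was 0.92 to 2.46 without each column in turn, the lowest without a tributyltin column and the highest without an oil column. Oil against untreated passed for DMRT1 in edgeR only (-3.30). For the remaining pairs of gene and comparison no alternative changed the call, but some changed the sign. In edgeR DMRT1 was at 0.63 for tributyltin against oil and at -0.38 for methyltestosterone against untreated. HEMGN was at 0.54 there for oil against untreated. These 3 signs are opposite to those of the main fit. DESeq2 gave no adjusted p for either gene in methyltestosterone against untreated. The 553 genes called by sex were 193 without a filter, 348 in DESeq2, 316 after thinning, 1014 with methyltestosterone and untreated columns alone and 0 with oil and tributyltin columns alone, or 382 in edgeR and 112 in DESeq2 on those tags. Leaving out both columns of a substance was chosen after the data were seen. For DMRT1 and HEMGN it gave the same sex estimates as leaving out 1 of them. It called 236 genes without untreated, 296 without methyltestosterone, 229 without tributyltin and 447 without oil. Leaving out a single column called 440 or 444 genes without an oil column and 216 to 293 without any other. The cause was not tested. DMRT1 rested on 0 to 8 tags in the oil and tributyltin columns, so depth limits it there. No pairing of left and right gonads was possible because the table joins the left and right libraries of each sex and substance.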

Other observations

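Further pairs of columns that differ in both substance and depth give the following in the authors' deposited table. For DMRT1 the p-value of tributyltin and methyltestosterone was 0.000814 in males and 0.000510 in females, and that of oil and methyltestosterone 6.99e-06 in males and 0.0138 in females. For HEMGN the authors' deposited table gave 0.282 and 0.950 for tributyltin and methyltestosterone in males and females, and 0.182 and 0.193 for oil and methyltestosterone. The authors' deposited p-values of untreated and tributyltin were 1.87e-05 in males and 0.0539 in females for DMRT1, and 0.0524 and 0.188 for HEMGN. Between 33.2% and 37.0% of the listed genes had a p-value under 0.05 in these pairs.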
